A study of Mus musculus with 3 samples.

Results

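Among bone marrow cells that had been cultured with GM-CSF, 280 of 16082 kept cells were neutrophil precursors, chosen by the RNA of their granule genes. A cell was a member when *Ngp*, *Camp*, *Ltf*, *Prtn3* and *Ms4a3* together made up at least 0.2% of its gene counts and neither *Ccr7* nor *Cd79a* was detected. Members with more *Prtn3* and *Ms4a3* than *Ngp*, *Camp* and *Ltf* were called early, and all others late. The cells came from a study of human skin grafts in mice that also asked what the active form of vitamin D3 does to macrophages. Marrow of C57/BL6 mice was grown in GM-CSF for 7 days. From day 7, cultures were either left untreated (Co-Mac) or given 1,25-dihydroxycholecalciferol (VD3) at 1 μM for 24 hours (VD-Mac), and each condition was sequenced as 1 droplet library (10x Genomics, 3' v3). The labels call both cultures macrophages, and neither the labels nor the methods give the number of mice behind them.

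Neutrophils are made in the bone marrow from dividing precursors that fill their granules in a fixed order. Promyelocytes make the proteases and peroxidase of primary granules, myelocytes and metamyelocytes turn to the proteins of secondary granules, and the gelatinase granules come last, as division stops. The vitamin D receptor is a nuclear receptor that pairs with retinoid X receptors on DNA, and one of its best known target genes is *Cyp24a1*, whose enzyme breaks VD3 down.

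The Co-Mac library held 7866 barcodes with 136905324 gene UMIs and the VD-Mac library 9794 barcodes with 124731240, where a UMI (unique molecular identifier) counts 1 captured RNA molecule. Barcodes with at least 300 genes, under 100000 gene UMIs and under 10% mitochondrial UMIs were kept, which left 7257 cells in Co-Mac (median 15804 UMIs) and 8825 in VD-Mac (median 12089 UMIs). The libraries shared 19 barcodes, of which 0 were members in either library. The level of a gene in a group (CPM) is its UMIs over all gene UMIs, both summed over the cells of that group. With 1 library per condition there was no replicate and no test. Brackets give 95% intervals (exact Poisson for levels, Clopper-Pearson for shares, conditional binomial for ratios), and all of them cover counting error only. A gene was called higher or lower when its 2 groups lay 2-fold or more apart and the higher one held 20 UMIs and 20 CPM or more, and the share of all tested genes with that call is given as the background of each comparison.

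Members were 135 of the cells in Co-Mac (1.86%, 1.56 to 2.20%) and 145 in VD-Mac (1.64%, 1.39 to 1.93%). The share of members was thus much the same in both cultures, but their make-up was not. Early members were 71 of 135 in Co-Mac (52.6%, 43.8 to 61.2%) and 26 of 145 in VD-Mac (17.9%, 12.1 to 25.2%), so that late members numbered 64 and 119. This split is made of the rule's own genes and is given as a description. Its size depended on the threshold of the rule. Early members were 115 of 194 in Co-Mac and 80 of 232 in VD-Mac at 0.1%, 39 of 81 and 5 of 83 at 0.5%, and 11 of 45 and 2 of 55 at 1%. With a mitochondrial limit of 5% they were 46 of 84 and 9 of 77. Along the fraction of rule UMIs that came from *Prtn3* and *Ms4a3*, 50 Co-Mac members lay above 0.95, 21 from 0.5 to 0.95, 25 from 0.05 to below 0.5, and 39 below 0.05. In VD-Mac the same bins held 16, 10, 30 and 89 members. Both ends were therefore filled in both cultures, with the weight at the early end in Co-Mac and at the late end in VD-Mac.

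Early members were large cells by RNA content. Their median was 28176 UMIs in Co-Mac and 19852 in VD-Mac, against 11992.5 and 10447 in late members. The rule's genes made up a median of 0.585% of the UMIs of early Co-Mac members and 0.304% of those of early VD-Mac members, so that the latter lay closer to the threshold of 0.2%. In late members the medians were 1.07% and 0.825%. Just inside the threshold, from 0.2 to 0.25%, there were 16 Co-Mac and 19 VD-Mac members. Just outside it, from 0.15 to below 0.2%, there were 19 and 36 cells, in which *S100a8* and *S100a9* made up a median of 5.19% and 9.09% of UMIs. A further 20 and 14 cells passed the threshold but held a UMI of *Ccr7* or *Cd79a*.

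**Figure D1:**
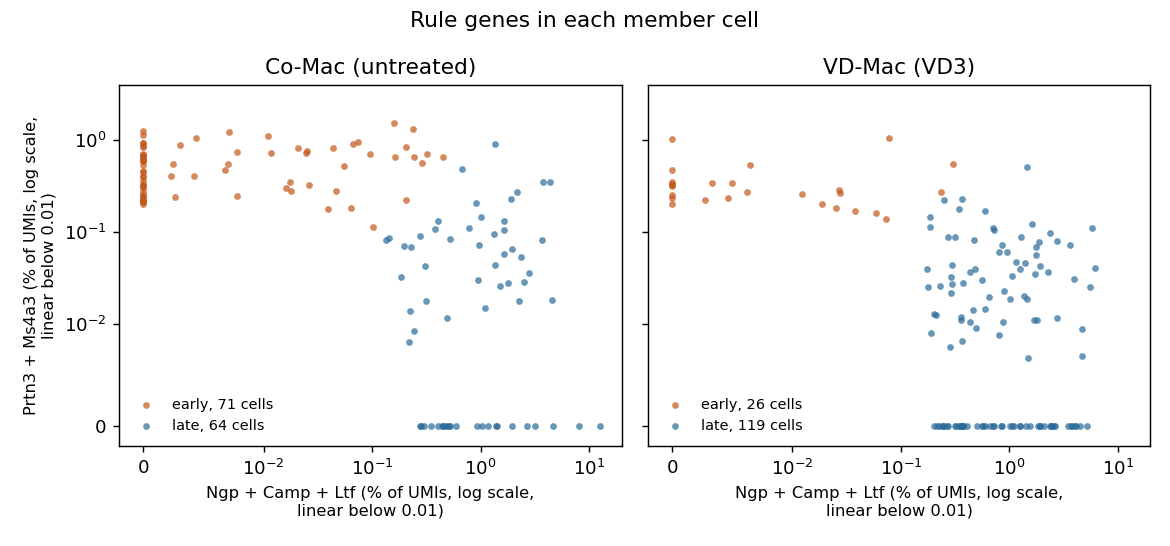
Each point is 1 member, with the share of its UMIs in *Ngp*, *Camp* and *Ltf* on the horizontal axis and in *Prtn3* and *Ms4a3* on the vertical axis (percent, log scale, linear below 0.01). Orange points are early members (71 in Co-Mac, 26 in VD-Mac) and blue points late members (64 and 119), and many cells at either end hold 0 UMIs of the other gene group.

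The genes that defined the stages were expressed as follows, as a description of what was selected on. *Prtn3*, which encodes proteinase 3, stood at 3927 CPM in early and 585 CPM in late Co-Mac members, and at 2672 and 257 CPM in VD-Mac. *Ms4a3*, a membrane protein gene of granulocyte and monocyte progenitors, ran from 1907 to 478 CPM in Co-Mac and from 839 to 211 CPM in VD-Mac. Secondary granule genes ran the other way. *Ngp*, the neutrophilic granule protein, stood at 373 CPM in early and 9479.8 CPM in late Co-Mac members and at 347 and 9535 CPM in VD-Mac. *Camp*, which encodes the antimicrobial peptide cathelicidin, stood at 24.7 and 2468 CPM in Co-Mac and at 13.3 and 1648 CPM in VD-Mac. *Ltf*, which encodes the iron-binding lactoferrin, stood at 9.20 and 1509 CPM in Co-Mac and at 55.0 and 1296 CPM in VD-Mac.

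Markers outside the rule were checked in both stages. Early members carried *Elane*, *Mpo* and *Ctsg*, the neutrophil elastase, myeloperoxidase and cathepsin G of primary granules. After every cell was thinned to 2000 UMIs, *Elane* was found in 44 of 66 early Co-Mac members (66.7%, and 90.1% unthinned) and 17 of 24 early VD-Mac members (70.8%, and 88.5% unthinned), against 7 of 60 late Co-Mac and 6 of 115 late VD-Mac members. *Ctsg* was in 40 of 66 and 14 of 24 thinned early members. *Mpo* was in fewer, 20 of 66 (30.3%) and 8 of 24 (33.3%). *Lcn2*, the iron-scavenging lipocalin of secondary granules, was found in 60 of 60 late Co-Mac and 113 of 115 late VD-Mac members. Unthinned, *Lcn2* was in 96.9% and 100% of late members. B-lineage cells, which should lack both genes, gave 0 of 19 cells in Co-Mac and 0 of 12 in VD-Mac with *Elane* or *Lcn2* after thinning. This allows a share of up to 17.6% and 26.5%. *Mpo* was at 0 in the same cells, and the interval of its early VD-Mac share (15.6 to 55.3%) reaches below 26.5%. Without thinning 1 of 14 VD-Mac B-lineage cells held *Lcn2*. Their median depths were 8563.5 and 6011 UMIs. *Cebpe*, the transcription factor needed for secondary granules, stood at 303 CPM (267 to 342) in late Co-Mac members and 375 CPM (343 to 410.3) in late VD-Mac members, against 11.4 and 12.5 CPM in all other kept cells. *Retnlg*, a gene of mature neutrophils, stood at 4.60 and 18.5 CPM in late members, in 1 Co-Mac and 4 VD-Mac cells, and at 0 UMIs in early members of both cultures.

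*S100a8* and *S100a9*, the calprotectin subunits that neutrophils hold in bulk, together stayed under 1% of UMIs in 22 of 71 early Co-Mac members and 8 of 26 early VD-Mac members, against 0 of 64 and 5 of 119 late members. Genes shared with monocyte progenitors were also present. *Ly6c2* was found in 59 of 66 thinned early and 49 of 60 late Co-Mac members, and in 15 of 24 early and 77 of 115 late VD-Mac members, so that it did not set the stages apart. In early Co-Mac members *F13a1*, a clotting factor subunit gene of monocytes, was found in 46.5% of cells before thinning but in 2 of 66 after it. Before thinning it was in 0 of 64 late Co-Mac members, which were less deeply counted. *Irf8*, a transcription factor of the monocyte and dendritic lineages, stood at 36.3 CPM in early and 11.5 CPM in late Co-Mac members. The early set is thus best read as cells with primary granule RNA, some of them with little calprotectin RNA and some with RNA of monocyte-lineage genes.

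RNA of other cell types was scarce but not evenly spread. In Co-Mac 1 early member held 1463 of the 1466 UMIs of the eosinophil granule genes *Epx*, *Prg2* and *Prg3* in its stage, 3.93% of its own UMIs, and those genes stood at 0 in both stages of VD-Mac. Of 16 macrophage markers, the summed level was 548 CPM in early and 1152 CPM in late Co-Mac members, with *Ctsd* the most abundant, and 311 and 658 CPM in VD-Mac. Of 17 MHC class II and dendritic cell markers, the sums were 1514 and 2724 CPM in Co-Mac and 1030 and 1468 CPM in VD-Mac, with *Cst3* the most abundant. In all, 1 early and 2 late Co-Mac members, and 2 late VD-Mac members, gave 1% or more of their UMIs to these 2 lists together. *Cd79a* stood at 0 by the rule, and *Ighm* was the most abundant of the 11 B cell markers in early members, at 34.9 and 39.9 CPM. The basophil protease gene *Mcpt8* stood at 18.9 and 5.69 CPM in early members. These lists return beside the results they touch.

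Early and late members differed along the textbook order of granule making, in both cultures. In Co-Mac 769 of 5435 genes tested were higher in early members (14.1%) and 474 lower (8.72%). In VD-Mac 495 of 4411 were higher (11.2%) and 461 lower (10.5%). These cells were divided by their own granule RNA, so the comparison describes the stages only. The balance of both directions depended on scaling. With median-of-ratios size factors, which moved all log2 ratios by -0.24 in Co-Mac and by -0.23 in VD-Mac, the splits became 412 higher and 668 lower in Co-Mac and 262 and 650 in VD-Mac. Without mitochondrial, ribosomal protein and rule genes in the totals (shifts of 0.14 and 0.17) they became 1222 and 374 in Co-Mac and 690 and 404 in VD-Mac.

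Several primary granule genes were higher in the early stage. Outside the rule, *Mpo* stood at 382 CPM (356 to 409.6) in early and 12.7 CPM (6.32 to 22.7) in late Co-Mac members, and at 315 CPM (269 to 367) and 5.41 CPM (2.17 to 11.1) in VD-Mac. *Ctsg* stood at 1235 CPM (1188 to 1284) and 101 CPM (81.2 to 125) in Co-Mac and at 1234 CPM (1141 to 1332) and 6.18 CPM (2.67 to 12.2) in VD-Mac. Over the list, 6 of 11 tested primary granule genes were higher and 0 lower in early Co-Mac members, with a median log2 ratio of 1.05 beside 0.28 over all genes. In VD-Mac 5 of 11 were higher and 0 lower, with a median of 0.49 beside 0.12. All genes tested gave 14.1% higher and 8.72% lower in Co-Mac, and 11.2% and 10.5% in VD-Mac. Median-of-ratios scaling gave 4 higher and 1 lower in Co-Mac, and 5 higher and 0 lower in VD-Mac. *Serpinb1a*, an inhibitor that holds these proteases in check, leaned the other way in both cultures without a call, with log2 ratios of -0.64 and -0.76.

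Machinery for growth also marked the early stage. Of the ribosome biogenesis genes, 15 of 19 tested were higher in early Co-Mac members and 14 of 16 in VD-Mac, with medians of 1.44 and 1.53, and median-of-ratios scaling left 13 and 11. *Npm1*, which encodes the nucleolar protein nucleophosmin, stood at 3289.5 CPM (3212 to 3369) in early and 845 CPM (785 to 908) in late Co-Mac members, and *Ncl*, which encodes nucleolin, at 1477 and 452 CPM. The mitochondrial chaperone gene *Hspd1* had log2 ratios of 1.92 in Co-Mac and 1.90 in VD-Mac, and *Plac8*, a gene of myeloid progenitors, 2.47 and 2.98. Most cell cycle genes leaned higher in the early stage as well. Over all genes tested, 64.0% in Co-Mac and 54.3% in VD-Mac had ratios above 0, and 14.1% and 11.2% were called higher. All 25 S phase genes tested in Co-Mac and all 22 in VD-Mac had ratios above 0, of which 7 and 11 were called higher. Of the genes of G2 and M phase, 25 of 26 lay above 0 in Co-Mac and 23 of 27 in VD-Mac, with 7 and 1 called higher. The VD-Mac count of 1 is below the share of all genes. Under median-of-ratios scaling the S phase calls became 1 in Co-Mac and 10 in VD-Mac, and those of G2 and M phase 3 and 0. *Mki67*, a marker of dividing cells, was found in 18 of 60 thinned late Co-Mac members (30.0%) and 27 of 115 late VD-Mac members (23.5%), against 27 of 66 and 9 of 24 early members, and in 3 of 19 (15.8%, 3.38 to 39.6%) and 1 of 12 (8.33%, 0.211 to 38.5%) B-lineage cells. The shares in late members and in early VD-Mac members (37.5%) lie inside these intervals. The share in early Co-Mac members (40.9%, 29.0 to 53.7%) lies just above, and its interval overlaps that of B-lineage cells. B-lineage cells were picked as cells that should lack myeloid genes, and *Mki67* is not one of those. Unthinned, 7 of 20 Co-Mac B-lineage cells held *Mki67* and 10 of 20 held *Top2a* of the G2 and M phase list. They therefore give no background level for *Mki67*, and no conclusion is drawn from this comparison. Free RNA was not corrected for, and its part in such shares was not tested.

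Late members carried the products of the later granules. Of secondary granule genes, the 3 of the rule among them, 15 of 19 tested were lower in the early stage in each culture and 0 higher. The direction of those 3 was set by the split, so this count is a description. Over all genes tested, 8.72% were lower and 14.1% higher in the early stage of Co-Mac, and 10.5% and 11.2% in VD-Mac. *Lcn2* stood at 8385 CPM (8194 to 8579.9) in late Co-Mac members and *Chil3*, a chitinase-like protein gene, at 13729 CPM (13484 to 13977). *Ceacam10* had log2 ratios of early over late of -5.51 (-6.30 to -4.80) in Co-Mac and -6.81 (-9.86 to -4.95) in VD-Mac. Of gelatinase granule and late maturation genes, 13 of 20 tested were lower and 1 higher in early Co-Mac members, and 18 of 21 lower and 0 higher in VD-Mac. *Mmp9*, the gelatinase itself, stood at 0 UMIs in early members of both cultures and at 64.5 CPM (48.7 to 83.7) and 182 CPM (159 to 206) in late members, which is at least 44.4-fold and 31.9-fold lower in the early stage. The stefin genes, inhibitors of cysteine proteases, were among the steepest. *Stfa2* was 52.0-fold lower in early Co-Mac members, and *Stfa3* 35.7-fold, but such near-identical family members share sequence and their UMIs may be divided unevenly among them. Some receptor genes were lower in the early stage as well. The complement receptor *C5ar1* stood at 8.71 CPM in early and 77.1 CPM in late Co-Mac members. Of growth factor and homing receptor genes, 6 of 18 were lower and 1 higher in the early stage of Co-Mac. In VD-Mac 11 of 19 were lower and 0 higher. Progenitor genes were few, with *Myb* at 87.1 CPM in early and 26.5 CPM in late Co-Mac members. It was 1 of 2 called higher of 3 tested from that list, beside *Cdk6* with a log2 ratio of 1.08, a call that ended under median-of-ratios scaling. In VD-Mac 3 of 4 were higher, and 2 under that scaling.

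VD3 was compared with no treatment within each stage, because the stages made up different shares of both libraries. The leading gene was the same in both. *Cyp24a1*, the VD3-degrading enzyme, was at 0 UMIs in all 135 Co-Mac members and stood at 1184 CPM (1093 to 1281) in early and 304 CPM (275 to 336) in late VD-Mac members. Against the floor of 3 counts this is at least 815-fold higher in the early stage and at least 88.1-fold in the late one. In early members 161 of 4672 genes tested were higher under VD3 (3.45%) and 355 lower (7.6%), with a median log2 ratio of -0.19. In late members 191 of 5088 were higher (3.75%) and 277 lower (5.44%), with a median of -0.07. Both comparisons use cells of the same libraries, so they are given side by side and not as repeats of each other.

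*Cyp24a1* RNA was present in a larger share of early than of late members. After thinning it was found in 16 of 24 early VD-Mac members (66.7%, 44.7 to 84.4%, and 80.8% unthinned) and in 33 of 115 late ones (28.7%, 20.6 to 37.9%, and 36.1% unthinned). Other granulocyte-rich cells of VD-Mac, with at least 2% of UMIs in *S100a8* and *S100a9*, gave 125 of 345 (36.2%). B-lineage cells gave 0 of 12, which allows up to 26.5%. The interval of the late share reaches below that limit, so by this check it cannot be told apart from background. The level in all other kept cells, given below, was close to that in late members. Free RNA was not corrected for, and its part in the late values was not tested. The receptor gene *Vdr* was near the limit of detection, at 7.26 CPM in early Co-Mac and 26.6 CPM in early VD-Mac members. In late members it stood at 8.06 and 20.1 CPM, a log2 ratio of 1.32 (0.08 to 2.77). In all other kept cells *Vdr* reached 52.1 and 137 CPM. Receptor partners and cofactors moved little, and of the 16 genes of that list only *Cyp24a1* was called of 5 tested in early members, and *Cyp24a1* and *Vdr* of 8 tested in late members.

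**Figure D2:**
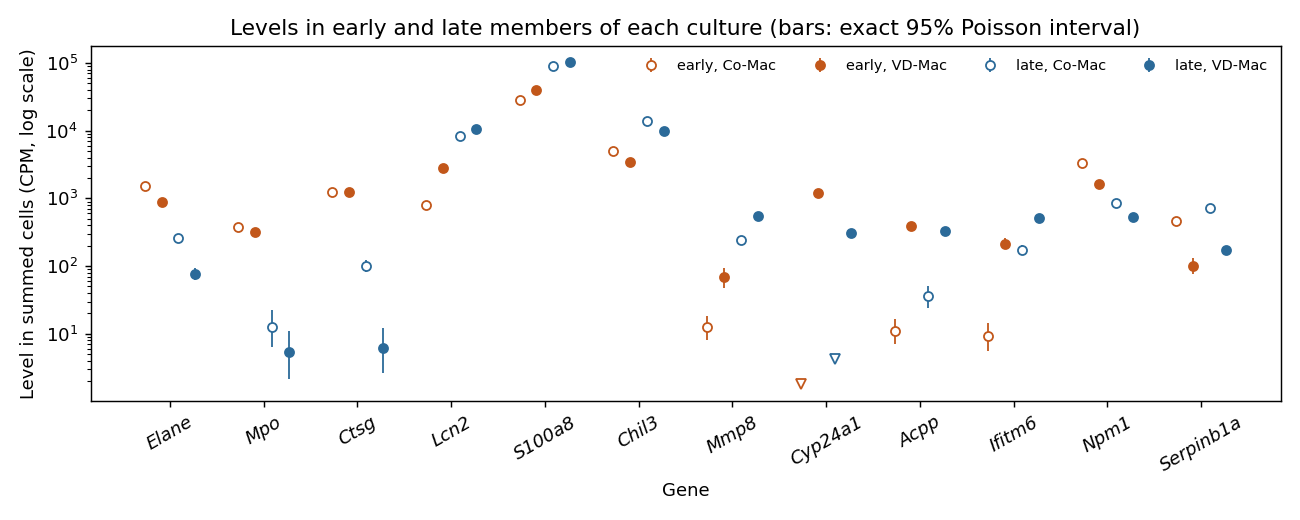
Levels of 12 genes in CPM (log scale) in early (orange) and late (blue) members of Co-Mac (open) and VD-Mac (filled), with bars for the exact 95% Poisson interval. Open triangles for *Cyp24a1* mark the upper limit of that interval in Co-Mac, where 0 UMIs were counted, against 1184 and 304 CPM in VD-Mac.

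Genes higher under VD3 in both stages, taken by the rank of the smaller of the 2 ratios, were of several kinds. *Gdf15*, a stress-induced cytokine, had 2 UMIs in early Co-Mac members and stood at 163 CPM (131 to 202) in early VD-Mac members, a log2 ratio of 7.40 (5.50 to 10.47). In late members it was at 0 UMIs in Co-Mac and 91.9 CPM (76.1 to 110.0) in VD-Mac, which is at least 26.6-fold higher. Only 12 of 26 early and 13 of 119 late VD-Mac members held a UMI of it. *Acpp*, an acid phosphatase gene, was spread more widely, in 23 of 26 early and 98 of 119 late VD-Mac members. It stood at 11.1 CPM (7.06 to 16.7) in early Co-Mac and 385 CPM (334 to 442) in early VD-Mac members, and at 35.7 CPM (24.2 to 50.7) and 327 CPM (296 to 359) in late ones. The log2 ratios were 5.11 (4.49 to 5.80) and 3.19 (2.67 to 3.77). *Dapk2*, a kinase gene of granulocytes tied to cell death, had log2 ratios of 4.82 (3.46 to 6.53) in the early and 2.91 (1.71 to 4.40) in the late stage, and *Ckb*, the brain-type creatine kinase, 4.10 (2.97 to 5.42) and 3.35 (2.17 to 4.83).

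Signalling genes were also among the 12 of this rank. *Osm*, which encodes the cytokine oncostatin M, stood at 9.20 CPM in early Co-Mac and 77.8 CPM in early VD-Mac members, and at 18.4 and 69.5 CPM in late ones. *Tgfbr2*, a receptor subunit for TGF-beta, went from 7.26 to 66.4 CPM in early and from 29.9 to 97.3 CPM in late members. *Lpar6*, a receptor for lysophosphatidic acid, had log2 ratios of 1.85 (1.12 to 2.57) and 2.02 (1.33 to 2.78). *Stx3*, a syntaxin of granule exocytosis, had log2 ratios of 2.21 and 1.78, *Treml2* of 1.63 and 1.75, the small homeobox gene *Hopx* of 1.64 and 1.65, and *Ifitm6*, a membrane protein gene of myeloid cells, of 4.54 and 1.60. With only the 2 early VD-Mac members left at a threshold of 1%, the early ratio of *Treml2* turned to -0.27.

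*Trem2*, the lipid receptor that the study followed in macrophages, was counted in members at a low level. It stood at 35.3 CPM (27.7 to 44.4) in early Co-Mac and 96.8 CPM (72.1 to 127) in early VD-Mac members, a log2 ratio of 1.45 (0.91 to 1.99). In late members it went from 27.6 CPM (17.7 to 41.1) to 61.8 CPM (49.0 to 76.9), a log2 ratio of 1.16 (0.49 to 1.88). After thinning it was found in 9 of 66 and 4 of 24 early members and in 0 of 60 and 12 of 115 late members, with 0 of 19 and 1 of 12 in B-lineage cells. The shares in early (16.7%) and late (10.4%) VD-Mac members lay inside the interval of that in VD-Mac B-lineage cells (8.33%, 0.211 to 38.5%). That in early Co-Mac members (13.6%) lay under the limit of 17.6% that 0 of 19 cells allows. None of these shares can thus be told apart from background. Unthinned shares were 35.2% and 61.5% of early and 15.6% and 19.3% of late members, against 5.00% and 7.14% of B-lineage cells, and 1 cell gave 45.8% of the late Co-Mac UMIs.

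Some genes of a list tied to vitamin D were higher under VD3. The list was drawn up with earlier results of these data known. It holds *Trem2*, *Mertk* and *Vegfa*, which the paper linked to VD3 in these same cultures, so its counts are a description. *Trem2* is counted among the genes called higher in both stages. Of 14 tested, the rule's *Camp* among them, 7 were higher and 1 lower in early members, beside 3.45% and 7.6% of all genes tested. Their median log2 ratio was 0.88 beside -0.19 over all genes. In late members 3 were higher and 0 lower, beside 3.75% and 5.44% of all genes tested, with a median of 0.40 beside -0.07. The difference from genes at large was not tested. *Hbegf*, an EGF-type growth factor, stood at 5.81 CPM (3.00 to 10.1) in early Co-Mac and 127 CPM (98.5 to 161) in early VD-Mac members, a log2 ratio of 4.45 (3.55 to 5.47), and had 1.92 (0.98 to 2.99) in late members. *Spp1*, which encodes the secreted phosphoprotein osteopontin, went from 95.9 CPM (83.0 to 110.2) to 592 CPM (528 to 662) in early members. The medians of single early cells were lower, at 39.1 CPM in Co-Mac and 271 CPM in VD-Mac, where 1 cell reached 7158 CPM. In late members both medians were 0, and 1 VD-Mac cell reached 11587 CPM. *Nfkbia*, the inhibitor of NF-kappa B, had a log2 ratio of 1.90 (1.66 to 2.14) in the early stage and 0.86 (0.61 to 1.12) in the late one, where it was not called. *Cd14*, the co-receptor for bacterial lipopolysaccharide, went from 11.1 to 47.4 CPM in early members but stood at 47.2 and 48.7 CPM in late ones. Its thinned share was 2 of 24 early VD-Mac members, beside 0 of 12 B-lineage cells. *Klf4*, a transcription factor of monocytes, was the 1 lower, at 25.7 and 1.90 CPM in early members. *Camp*, a well known vitamin D target in human but not in mouse cells, decides membership and stage here, so its ratios are a description, with log2 ratios of -0.89 (-2.28 to 0.25) and -0.58 (-0.67 to -0.50), neither of them called.

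Primary granule genes leaned lower under VD3 in both stages as a list. In early members 0 of 11 tested were higher and 5 lower, with a median log2 ratio of -0.79, beside 3.45%, 7.6% and -0.19 over all genes. *Elane*, *Mpo* and *Ctsg* were not among the 5. In late members 0 of 9 were higher and 4 lower, with a median of -0.55, beside 3.75%, 5.44% and -0.07 over all genes. *Mpo* stood at 152 CPM in Co-Mac and 37.6 CPM in VD-Mac from 0.5 to 0.95, and at 480 and 503 CPM above 0.95. *Serpinb1a* moved most evenly. It stood at 457 CPM (429 to 488) in early Co-Mac and 101 CPM (75.3 to 132) in early VD-Mac members, a log2 ratio of -2.19 (-2.61 to -1.79). In late members it went from 711 CPM (656 to 769.8) to 171 CPM (149 to 195), a log2 ratio of -2.06 (-2.29 to -1.84). It was carried by many cells, 66 of 71 early and 55 of 64 late members of Co-Mac, against 14 of 26 and 45 of 119 of VD-Mac. *Elane* stood at 1518 CPM (1465 to 1572) in early Co-Mac and 875 CPM (797 to 958) in early VD-Mac members, short of the call, and at 264 CPM (231 to 300.1) and 75.7 CPM (61.5 to 92.3) in late members, a log2 ratio of -1.80 (-2.16 to -1.45). In late members *Elane* was held by 10 Co-Mac and 20 VD-Mac cells, and 1 cell gave 45.0% of its Co-Mac UMIs. *Ctsg* stood at 1235 CPM (1188 to 1284) and 1234 CPM (1141 to 1332) in early members, values that pool unlike cells. The medians of single cells were 700 CPM in Co-Mac and 227 CPM in VD-Mac. From 0.5 to 0.95 *Ctsg* was at 878 CPM (805 to 955) and 301 CPM (232 to 384), and above 0.95 at 1388 CPM (1328 to 1451) and 1865 CPM (1717 to 2022), with 10 and 16 VD-Mac cells. The higher VD-Mac value above 0.95 rested on 1 cell at 8579 CPM. In late members *Ctsg* was far apart, with a log2 ratio of -4.04 (-5.29 to -2.99). Those late values rested on few cells, since only 8 late Co-Mac members and 4 late VD-Mac members held a UMI of *Ctsg*, and 1 Co-Mac cell gave 48.9% of the Co-Mac UMIs. *Srgn*, the proteoglycan core that packs granule proteins, and *Calr*, an endoplasmic reticulum chaperone, were lower in early members, with log2 ratios of -1.38 (-1.60 to -1.17) and -1.70 (-1.93 to -1.48), but not in late ones, at 0.67 (0.40 to 0.94) and -0.51 (-0.70 to -0.33). The rule's own *Prtn3* and *Ms4a3* were lower as well, with log2 ratios in late members of -1.18 (-1.39 to -0.98) and -1.18 (-1.41 to -0.96), and are given as a description. These late ratios carry a different mix of bins, since 39 of 64 late members lay below a fraction of 0.05 in Co-Mac and 89 of 119 in VD-Mac. In that bin *Prtn3* stood at 24.6 CPM (11.8 to 45.3) and 46.2 CPM (32.8 to 63.1) and *Ms4a3* at 136 CPM (102 to 176) and 136 CPM (112 to 163). From 0.05 to below 0.5 *Prtn3* stood at 1076 and 654 CPM and *Ms4a3* at 778 and 351 CPM. The late ratio of *Elane* carries the same mix. Below 0.05 *Elane* stood at 0 CPM in Co-Mac and 8.29 CPM (3.33 to 17.1) in VD-Mac, and from 0.05 to below 0.5 at 495 and 202 CPM.

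Secondary granule genes divided in the early stage and mostly stayed within 2-fold in the late one. In early members 16 were tested, 3 of them genes of the rule, and 4 were higher and 2 lower. Of these ratios 9 lay above 0 and 7 below, with a median log2 ratio of 0.28. In late members 1 of 19 was higher and 0 lower, with a median of 0.19. The shares over all genes tested were 3.45% higher and 7.6% lower in early members, and 3.75% and 5.44% in late ones. *Lcn2* stood at 802 CPM (764 to 841) in early Co-Mac and 2769 CPM (2629 to 2915) in early VD-Mac members, a log2 ratio of 1.79 (1.69 to 1.89), but at 8385 CPM (8194 to 8579.9) and 10581 CPM (10404 to 10759) in late ones, a log2 ratio of 0.34 (0.29 to 0.38). *Lyz2*, the lysozyme gene, went from 1116 to 3553 CPM in early and from 3909 to 6399.5 CPM in late members. *Ltf* of the rule, at 9.20 and 55.0 CPM in early members, is among the 4 but was selected on, so its value is a description. *Chil3*, the most abundant of the list in early Co-Mac members, stood at 4965 CPM in early Co-Mac and 3448 CPM in early VD-Mac members, without a call, and the 2 lower were *Cybb*, an oxidase subunit, and *Adpgk*, an ADP-dependent glucokinase gene. Early members hold cells at different points of the fraction that divides the stages, so 2 of these genes were also read by bin. At fractions above 0.95, *Lcn2* stood at 484 CPM (449 to 522) in Co-Mac and 904 CPM (802 to 1015) in VD-Mac, and from 0.5 to 0.95 at 1544 CPM (1447 to 1645) and 5525 CPM (5214 to 5850). *Chil3* went the other way, at 4483 CPM (4374 to 4593) and 2084 CPM (1928 to 2250.1) above 0.95 and at 6093 CPM (5900.3 to 6291) and 5464 CPM (5154 to 5787) from 0.5 to 0.95. An effect of VD3 and a different place of the cells within a bin cannot be told apart here. Below 0.05 the levels of *Lcn2* were 10899 CPM (10580 to 11225) and 12078 CPM (11844 to 12314).

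Genes of the gelatinase granule and of late maturation leaned higher under VD3 in late members. There 7 of 22 tested were higher and 2 lower, with a median log2 ratio of 0.61, beside 3.75% and 5.44% of all genes tested. Early members had 2 of 13 higher and 5 lower, beside 3.45% and 7.6% of all genes tested. Their median of -0.06 turned to 0.01 under median-of-ratios scaling. *Mmp8*, the neutrophil collagenase, stood at 243 CPM (211 to 278) in late Co-Mac and 558 CPM (518 to 601) in late VD-Mac members, a log2 ratio of 1.20 (0.98 to 1.43). That ratio carries the mix of bins as well. Below a fraction of 0.05, where 39 of 64 and 89 of 119 late members lay, *Mmp8* stood at 503 CPM (436 to 577) and 817 CPM (757 to 880.1), which is within 2-fold. From 0.05 to below 0.5 it stood at 15.1 CPM (6.08 to 31.2) and 73.4 CPM (50.5 to 103). Its pooled level was higher in VD-Mac in both early bins too, at 14.5 CPM (6.65 to 27.6) and 75.2 CPM (43.0 to 122) from 0.5 to 0.95 and at 11.7 CPM (6.84 to 18.8) and 63.6 CPM (38.9 to 98.3) above 0.95, with 10 and 16 VD-Mac cells. However, 1 VD-Mac cell at 1050 CPM gave most of the *Mmp8* UMIs above 0.95, so the value there rests on that cell. Of 26 early VD-Mac members, 18 held 0 UMIs of *Mmp8*. The other genes of this list were not read by bin. *Mmp9* went from 64.5 to 182 CPM in late members, a log2 ratio of 1.49 (1.07 to 1.94). Among the stefins, *Stfa1* went from 1238 to 3192 CPM and *Stfa2* from 830.0 to 1760.4 CPM in late members, but 1 cell gave 46.7% of the late Co-Mac UMIs of *Stfa1*. *Mxd1*, a MYC antagonist switched on in maturing granulocytes, was called in the early stage, from 13.6 CPM (9.01 to 19.6) to 58.8 CPM (40.0 to 83.5), and had a log2 ratio of 0.92 (0.56 to 1.29) in the late one. *G0s2*, a lipolysis inhibitor gene, was lower in both stages, from 161 to 9.49 CPM in early and from 143 to 36.3 CPM in late members.

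Ribosome biogenesis genes leaned lower under VD3 in both stages. In early members 0 of 19 tested were higher and 5 lower, with all 19 ratios below 0 and a median of -0.91. In late members 0 of 17 were higher and 9 lower, with 16 below 0 and a median of -1.004. Beside them, 3.45% of all genes tested were higher and 7.6% lower in early members, and 3.75% and 5.44% in late ones. Median-of-ratios scaling left 5 lower in early and 7 in late members, and the late call of *Nop58* below is 1 that it ended. *Ncl* stood at 1477 CPM (1425 to 1530.4) in early Co-Mac and 752 CPM (679 to 829) in early VD-Mac members, a log2 ratio of -0.97 (-1.13 to -0.82). *Wdr12*, a factor for the large ribosomal subunit, had log2 ratios of -1.43 (-2.10 to -0.83) and -2.05 (-3.33 to -0.90), and *Nop58*, a core protein of small nucleolar RNA complexes, -1.17 (-1.58 to -0.79) and -1.02 (-1.52 to -0.53). All other kept cells had 1 of 18 lower (0 under that scaling), with a median of -0.67 beside -0.10 over all genes. *Hspd1* shared this course, with log2 ratios of -1.17 (-1.42 to -0.94) and -1.16 (-1.52 to -0.79) in early and late members. Of S phase genes 0 of 24 were called in early members, with 18 below 0. Their median of -0.22 was close to the -0.19 over all genes, of which 33.9% lay above 0. In late members 0 were higher and 4 lower of 19, with 17 below 0 and a median of -0.56 beside -0.07 over all genes. Among them was *Mcm2*, which encodes a subunit of the replicative helicase, with a log2 ratio of -1.22 (-1.88 to -0.57). Of genes of G2 and M phase, 0 of 26 were called in early members, with a median of 0.02, and 3 of 27 were higher and 0 lower in late ones, with a median of 0.27. The late direction of S phase genes was not the same in both bins. Below a fraction of 0.05, with 39 of 64 late Co-Mac and 89 of 119 late VD-Mac members, these genes summed to 1020.4 and 1110.4 CPM, and from 0.05 to below 0.5 to 2348 and 1609 CPM. Genes of G2 and M phase summed to 2378 and 4773 CPM below 0.05 and to 6098 and 7365 CPM from 0.05 to below 0.5. Glycolysis genes held nearly level, with medians of -0.11 and -0.02 (the latter 0.05 under median-of-ratios scaling) and 1 gene higher in each stage, *Slc16a3*, which encodes a lactate transporter, beside 1 lower of 16 in early members, the phosphofructokinase gene *Pfkp*, and 0 lower of 17 in late ones. Of sterol and fatty acid synthesis genes 0 were higher and 2 lower of 15 in early members, and 1 was higher and 1 lower of 16 in late ones, with *Fasn*, the fatty acid synthase, lower in both (-1.14 (-1.81 to -0.52) and -1.04 (-1.86 to -0.23)). Median-of-ratios scaling left 1 lower in early and 0 lower in late members, so the late call of *Fasn* depended on scaling.

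Some transcription factors of the lineage stayed level and others were called. *Cebpb*, the most abundant of the 15, stood at 741 and 740.1 CPM in early and at 767 and 805 CPM in late members, and *Spi1*, which encodes PU.1, had log2 ratios of 0.13 (-0.09 to 0.34) and 0.13 (-0.05 to 0.31). *Cebpe* had 0.17 (-0.15 to 0.48) and 0.31 (0.09 to 0.53). Of the 13 tested in early members *Mxd1* and *Rara*, the retinoic acid receptor gene, were higher and *Gfi1* and *Klf4* lower. In that stage 3.45% of all genes tested were higher and 7.60% lower. Of the 12 tested in late members *Myc* and *Etv6* were lower, beside 5.44% of all genes tested. *Gfi1*, a repressor that promyelocytes need, went from 29.5 CPM (22.6 to 37.9) to 7.59 CPM (2.07 to 19.4) in early members, where only 4 of 26 VD-Mac cells held a UMI. The progenitor genes *Myb* and *Sox4* parted, with *Myb* lower in both stages (-1.13 (-1.86 to -0.47) and -2.10 (-3.47 to -0.89)) and *Sox4* going from 10.2 CPM (6.29 to 15.5) to 62.6 CPM (43.1 to 87.9) in early members. Of progenitor genes, 1 was higher and 1 lower of 4 tested in early members, and 0 were higher and 2 lower of 3 in late ones, of which median-of-ratios scaling left 1.

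Monocyte-lineage genes were lower under VD3 in early members, with 1 of 9 tested higher, 6 lower and a median log2 ratio of -1.36. In late members 0 of 7 were higher and 2 lower, with a median of -0.62. Over all genes tested, 3.45% were higher and 7.6% lower in early members, with a median of -0.19. For late members these values were 3.75%, 5.44% and -0.07. Differences of the list counts of this paragraph from those shares were not tested. *Ly6c2* went from 1551 CPM (1498 to 1606) to 662 CPM (595 to 736) in early members. *S100a4*, a calcium-binding protein gene of motile myeloid cells, stood at 218 CPM (198 to 239) and 28.5 CPM (15.9 to 47.0) in early and at 485 CPM (439 to 533) and 119.7 CPM (102 to 140.1) in late members. It was lower in both stages and also in all other kept cells, where it went from 1549 to 386 CPM, but its early ratio was 0.65 at a threshold of 1%, with 2 early VD-Mac members. *S100a8* and *S100a9* did not share this course, with log2 ratios in early members of 0.47 (0.45 to 0.49) and 0.53 (0.51 to 0.56) and in late members of 0.17 and -0.02. Of the 6 calprotectin and related S100 genes, 0 were higher and 3 lower in early members and 0 and 2 in late ones. The NADPH oxidase, which makes the oxidative burst, was within 2-fold for most subunits. In early members *Rac2* was higher (1.36 (1.20 to 1.53)) and *Cybb* lower (-1.22 (-1.56 to -0.91)) of 7 tested, and 0 of 7 were called in late members.

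Stress and immediate early genes leaned higher in early members, 6 of 11 tested with 1 lower and a median log2 ratio of 1.15. In late members 2 of 12 were higher and 0 lower, with a median of 0.31. Among all genes tested, 3.45% were higher and 7.6% lower in early members, and 3.75% and 5.44% in late ones. Differences of the list counts of this paragraph from those shares were not tested. *Ier3* went from 44.5 CPM (35.9 to 54.6) to 260.0 CPM (218 to 307) in early members, and *Junb* from 78.9 CPM (67.3 to 92.0) to 252 CPM (211 to 299). The heat shock gene *Hsp90aa1* leaned the other way without a call, at 1449.9 and 776 CPM. Cytokine genes divided, with 3 higher and 3 lower of 6 in early members and 3 higher and 1 lower of 11 in late ones. *Tnf* went from 25.2 CPM (18.8 to 33.0) to 101 CPM (75.3 to 132) in early members, while the chemokine gene *Ccl6* went from 238 to 66.4 CPM. A single cell held 64.0% of the *Ccl6* UMIs of early Co-Mac members. *Il1rn*, the antagonist of the interleukin 1 receptor, was the 1 lower in late members, with a log2 ratio of -1.57. Growth factor and homing receptor genes had 2 higher and 2 lower of 16 in early members and 2 higher and 0 lower of 19 in late ones. *Il1r2*, a decoy receptor of interleukin 1, went from 41.1 to 118 CPM in early members and *Fcgr3*, an Fc receptor, from 113 to 280.4 CPM in late ones.

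Of 29 interferon-stimulated genes only 5 could be tested in early and 7 in late members, and the ones that were higher belonged mostly to the Ifitm family, which blocks viral entry at membranes. *Ifitm1* stood at 1206 CPM (1159 to 1254) in early Co-Mac and 2636 CPM (2499 to 2778) in early VD-Mac members and at 548 CPM (499.8 to 599) and 1924 CPM (1849 to 2001) in late ones. *Ifitm3* had log2 ratios of 1.79 and 1.37. The third in late members was *Zbp1*, a sensor of nucleic acids, with 1.10 (0.26 to 2.01). *Bst2* and *Ifitm2* were within 2-fold in both stages.

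Genes lower under VD3 in both stages by rank were in part macrophage and dendritic cell genes held by few members. *Mmp12*, the macrophage elastase, stood at 70.7 and 195 CPM in early and late Co-Mac members and at 3.80 and 1.54 CPM in VD-Mac, but single cells gave 65.1% and 72.2% of its Co-Mac UMIs. Single cells also weighed on *Fn1* (fibronectin), with 92.4% and 82.0% in 1 cell of each stage, on the lectin gene *Mgl2* with 36.0% and 47.3%, and on the chemokine gene *Ccl17* with 69.6% and 56.5%. The sign of *Ccl17* turned under several alternatives, among them the removal of members rich in macrophage, MHC class II and dendritic cell markers, which gave 0.14 in late members in place of -3.70. For comparison, 3.45% of all genes tested were higher and 7.6% lower in early members, and 3.75% and 5.44% in late ones. Of the macrophage markers, 0 were higher and 2 lower of 4 tested in early members and 0 and 4 of 9 in late ones. Of MHC class II and dendritic cell markers, 1 was higher and 1 lower of 8 in early members, and 0 were higher and 4 lower of 8 in late ones. The part of such cells in these ratios was not tested beyond that alternative. Of the 6 megakaryocyte and platelet markers, *Pf4*, which encodes platelet factor 4, was the only one tested and was lower in both stages, from 49.4 to 7.59 CPM in early and from 236 to 19.3 CPM in late members. Of 9 eosinophil markers 3 were lower and 0 higher of 3 tested in early members, nearly all from the single cell named above, and *Ear2* was lower in late ones. B cell, erythroid and stromal markers had 1 gene tested and 0 called in early members and 0 tested in late ones, and no T cell, NK cell, basophil or mast cell marker reached the level to be tested in either. The sex-linked *Xist* was within 2-fold in both stages.

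Other genes of this rank were spread over many members. *Gal*, which encodes the neuropeptide galanin, was found in 33 of 71 early and 41 of 64 late Co-Mac members. It stood at 59.5 CPM (49.5 to 71.0) in early and 391 CPM (351 to 435) in late Co-Mac members, against 3.80 CPM (0.460 to 13.7) and 83.4 CPM (68.4 to 101) in VD-Mac. *Fabp5*, a fatty acid binding protein gene, went from 830.3 CPM (791 to 870.5) to 222 CPM (184 to 266) in early and from 154 CPM (129 to 183) to 47.1 CPM (36.0 to 60.5) in late members. *Lgals1*, which encodes galectin 1, had log2 ratios of -1.45 (-1.88 to -1.04) and -1.48 (-2.07 to -0.91), and *Ass1*, an enzyme of arginine synthesis, -1.92 (-2.75 to -1.19) and -1.63 (-2.16 to -1.13). *Lpl*, the lipoprotein lipase, had -2.55 (-2.85 to -2.25) in late members, with 49.0% of its late Co-Mac UMIs in 1 cell.

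**Figure D3:**
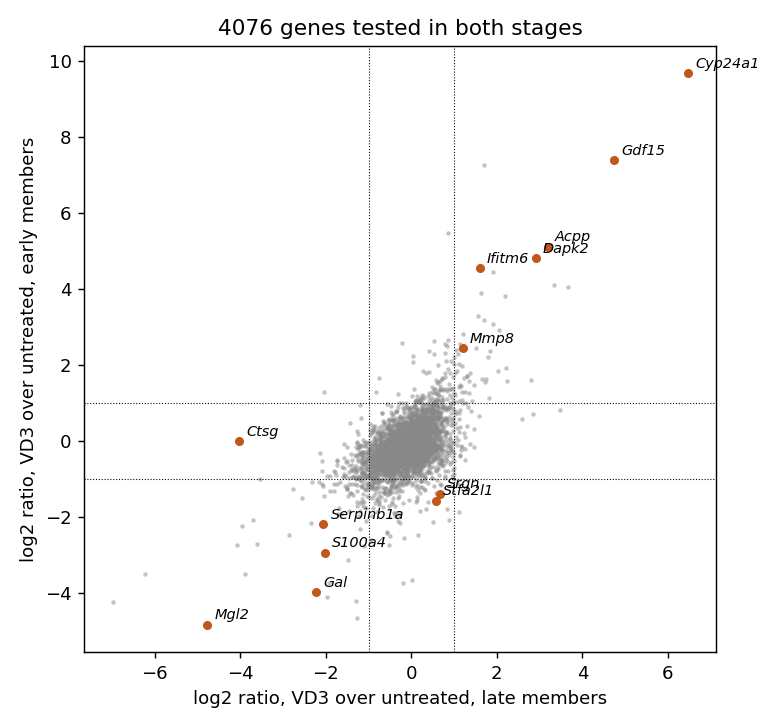
Each point is 1 of 4076 genes tested in both stages, with the log2 ratio of VD3 over untreated in late members on the horizontal axis and in early members on the vertical axis. Dotted lines mark 2-fold, and named genes are in orange. *Cyp24a1* lies at the upper right, as a lower bound on both axes, and *Ctsg* lies near 0 in early members and at -4.04 in late ones.

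Some genes moved differently in the 2 stages, by the size of the difference between their log2 ratios, which was not tested. *Ccl3*, a chemokine gene, stood at 2.42 CPM (0.786 to 5.65) in early Co-Mac and 108 CPM (81.9 to 140.1) in early VD-Mac members, but at 28.8 CPM (18.6 to 42.5) and 52.5 CPM (40.8 to 66.6) in late ones, where the call was missed. *Smox*, the spermine oxidase, had 1 UMI in early Co-Mac members, which gives a log2 ratio of 7.26 (4.69 to 12.60) in early members beside 1.69 (0.74 to 2.78) in late ones. *Ifitm6* went from 9.20 CPM (5.54 to 14.4) to 214 CPM (177 to 258) in early and from 173 CPM (146 to 203) to 522 CPM (484 to 563) in late members. *H2-Eb1*, an MHC class II gene, was higher in early and lower in late members, but 1 cell held 70.0% of its early VD-Mac UMIs and another 76.8% of its late Co-Mac UMIs. In the other direction, *BC100530*, a stefin-type gene, went from 318 CPM (294 to 343) to 75.9 CPM (54.2 to 103) in early and from 2962 CPM (2849 to 3079) to 5452 CPM (5325 to 5580.5) in late members. *Stfa2l1* had log2 ratios of -1.57 (-2.30 to -0.90) and 0.57 (0.48 to 0.67), and *Srgn* those given above. The early sign of *Stfa2l1* turned when members were thinned to 2000 UMIs (0.20) and at a threshold of 0.5% (0.45), where 5 early VD-Mac members remained.

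Over all members together, with their different mix of stages, 273 of 5485 genes were higher under VD3 (4.98%) and 530 lower (9.66%). Median-of-ratios scaling, which moved all log2 ratios by 0.15, gave 371 higher and 356 lower. With both stages weighted equally the counts were 158 and 226, so that fewer genes passed once the mix was held equal. The lists differ in the same way. Ribosome biogenesis genes had 17 of 19 lower over all members, against 5 of 19 and 9 of 17 within the stages. Secondary granule genes had 9 of 19 higher, against 4 of 16 and 1 of 19. These counts of secondary granule genes hold the rule's 3, which were selected on, and are a description.

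All other kept cells of the cultures gave a measure of what was shared. There 128 of 5641 genes were higher under VD3 (2.27%) and 259 lower (4.59%), with a median of -0.10. *Cyp24a1* went from 1 UMI to 311 CPM (308 to 314) in them, a level close to that of late members and below that of early ones. *Serpinb1a* was lower there too, from 39.7 to 3.11 CPM. By the difference between the log2 ratios of all members and of other cells, which was not tested, several genes of late members stood out. *Nov*, a matricellular protein gene, stood at 70.2 CPM (53.7 to 90.2) in late Co-Mac and 126 CPM (107 to 147) in late VD-Mac members, but went from 31.1 to 7.66 CPM in other cells. *Plaur*, the urokinase receptor, stood at 129 and 192 CPM in late members and went from 123 to 31.7 CPM in other cells. *Mmp8* went from 185 to 114 CPM in other cells, against its higher level in late members under VD3. Among these other cells, the granulocyte-rich ones held *Mmp8* after thinning in 113 of 343 cells (32.9%) in Co-Mac and 150 of 345 (43.5%) in VD-Mac. *Clec4a2*, an inhibitory lectin receptor gene, was within 2-fold in both stages (-0.88 (-1.63 to -0.20) and -0.50 (-0.85 to -0.15)) and lower in other cells (-2.95 (-3.02 to -2.88)). At the other end stood *Prg2*, *Prg3* and *Epx*, which came from 1 early Co-Mac member, followed by *Elane*, *Mpo* and the rule's *Prtn3*. That rank carries the mix of stages, since early members were 52.6% of members in Co-Mac and 17.9% in VD-Mac, and within early members neither *Elane* nor *Mpo* was called.

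The promoters of the genes that mark the stages were read for 2 motifs, since the C/EBP factors drive granule genes and the receptor of VD3 binds repeats spaced by 3 bases. RefSeq promoters (build GRCm38.p6, 250 bases before to 50 after the start) were at hand for 5 of 5 rule genes, 4 of 5 early markers and 5 of 5 late markers. The C/EBP-type motif TTGCNNAA, searched on both strands, was found in 3298 of 27025 genes (12.2%) and 3547 of 32851 promoters (10.8%). It was in 3 of the 5 rule genes, *Ngp*, *Ltf* and *Ms4a3*, in *Lcn2* and *S100a9* of 5 late markers, and in *Gfi1* of 4 early markers. Among the genes named by rank, it was in 1 of 9 higher and 0 of 9 lower in early members, and in 1 of 9 higher and 1 of 7 lower under VD3 in both stages. The vitamin D response element of the DR3 type was in 79 genes (0.292%) and in 0 of the rule genes, 0 of the markers and 0 of the 9 genes with a promoter among the 12 higher under VD3 in both stages. *Cyp24a1* was not in the table. A match is a run of letters and not a site, and no match says only that these letters are not in this window. The promoters of the 3 secondary granule genes with a match are shown with it in capitals, as genes of the late stage. They lie at chr9:110419558-110419857 on the plus strand (*Ngp*, 2 matches), chr9:111019042-111019341 on the plus strand (*Ltf*) and chr2:32387690-32387989 on the minus strand (*Lcn2*).
Ngp: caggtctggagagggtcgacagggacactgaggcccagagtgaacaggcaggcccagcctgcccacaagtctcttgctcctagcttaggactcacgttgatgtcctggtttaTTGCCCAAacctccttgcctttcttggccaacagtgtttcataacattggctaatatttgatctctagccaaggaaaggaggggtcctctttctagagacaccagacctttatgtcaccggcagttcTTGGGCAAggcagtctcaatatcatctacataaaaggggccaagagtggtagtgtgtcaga
Ltf: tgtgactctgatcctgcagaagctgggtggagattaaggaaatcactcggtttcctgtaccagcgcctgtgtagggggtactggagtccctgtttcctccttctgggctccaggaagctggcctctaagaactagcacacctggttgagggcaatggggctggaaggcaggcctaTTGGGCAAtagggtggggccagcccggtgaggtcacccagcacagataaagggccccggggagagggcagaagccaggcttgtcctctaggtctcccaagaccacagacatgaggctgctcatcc
Lcn2: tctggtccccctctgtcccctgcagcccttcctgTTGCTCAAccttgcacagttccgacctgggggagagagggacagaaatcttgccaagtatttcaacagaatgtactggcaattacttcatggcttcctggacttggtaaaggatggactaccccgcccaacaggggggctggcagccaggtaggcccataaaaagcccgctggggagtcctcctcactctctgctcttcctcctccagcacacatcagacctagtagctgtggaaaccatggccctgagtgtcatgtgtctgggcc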

How the data were processed

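Gene counts came from 2 droplet libraries of cultured mouse marrow, 1 untreated and 1 with VD3, and 1 graft library was used only for a check. The deposited counts are UMI counts per gene and barcode that the authors made with Cell Ranger 3.1.0 (per the file headers), and the labels name Seurat 3.1.1 for their later steps. The labels give build mm9, the paper names a human build, and the features are 31053 mouse genes, so the build is not settled. Everything else was computed here with Python 3.11.15, numpy 2.4.6, scipy 1.17.1, pandas 2.3.3, scanpy 1.11.5, anndata 0.12.19 and matplotlib 3.10.9. Scripts were tested on simulated data. The members and gene lists were chosen with earlier results of these data known. UMIs of all cells of a group were summed and divided by the group's gene UMIs. A zero was set to 3 counts for a ratio, and 0.5 was added to counts for differences between ratios. Genes were named by rank, whether called or not, among those with at least 50 CPM in the higher group. There were 12 per direction for ratios (for VD3 by the smaller ratio of both stages) and 6 per direction for differences. Genes of the fixed lists were named by function. Doublet scores (Scrublet) were computed in all barcodes of each library. Its automatic threshold called 0 barcodes in both, which is not a working call, so no cell was removed, and removal of the 495 and 767 highest scores was run as an alternative. Random steps used seed 20211. Free RNA was not corrected for, and cells were not clustered. The human cells, the graft's mouse cells beyond the check and the other macrophages were not analysed.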

Additional observations from a re-analysis of the deposited data

Results flagged for a closer look

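The graft library, which is in none of the comparisons, held 28 cells of 2144 kept that meet the rule for members (1.31%, 0.870 to 1.88%). All 28 were late and 0 early, with 8296 UMIs of *Ngp*, 2995 of *Camp*, 2580 of *Ltf*, 0 of *Prtn3* and 2 of *Ms4a3*. They also held 5205 UMIs of *Retnlg*, a gene of mature neutrophils that late members of the cultures barely expressed, and 0 of *Elane*.

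For 4 genes, picked after the values were seen, VD3 went with a call in opposite directions in the 2 stages. The early minus late difference of log2 ratios was not tested for any of them. For *H2-Eb1* it was 3.33, with 15.5 CPM in Co-Mac and 38.0 CPM in VD-Mac in early members and 114 and 27.8 CPM in late ones, and 1 cell gave 70.0% of the early VD-Mac UMIs and 1 cell 76.8% of the late Co-Mac UMIs. For *2010005H15Rik*, a stefin-like gene, it was -1.96 (53.3 and 26.6 CPM in early members, 667 and 1338 CPM in late ones). Its early log2 ratio was -1.003 (-1.92 to -0.20), and the shift of 0.07 under median-of-ratios scaling ends that call. For *Atg12*, a conjugation factor of autophagy, it was -2.11 (37.3 and 17.1 CPM in early members, 11.5 and 24.7 CPM in late ones), with a late log2 ratio of 1.10 (0.04 to 2.29). For *Polr1c*, a subunit of RNA polymerases I and III, it was -2.81 (41.1 and 11.4 CPM in early members, 9.21 and 20.1 CPM in late ones), and the interval of its late log2 ratio of 1.12 (-0.06 to 2.48) includes no change.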

How the results depend on the processing

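Each condition is 1 library, so no spread between cultures can be given, and only 26 early members stand behind every early value of VD-Mac. No paired analysis was possible because each condition has 1 library and no label links them. The results were run again under 19 alternatives and 3 more added after seeing the data (the eosinophil-like member left out, members poor in calprotectin RNA left out, and the top cell of each gene left out). Over 16 shares and counts of calls, 185 of 286 values stayed the same and 101 moved, where a share moved if it left its 95% interval and a count if it changed by over 1.5 times. Over 130 named ratios, 1573 of 2025 values stayed inside their interval, 440 left it with the same sign and 12 turned sign. Except where the construction of an alternative shows it (other minimums, folds, or fewer cells), the cause was not tested.

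With a rule threshold of 0.1%, members were 2.67% of cells in Co-Mac and 2.63% in VD-Mac, the early share in VD-Mac was 34.5%, early over late in VD-Mac gave 258 lower, and VD3 in early members 263 higher. At 0.5% members were 1.12% and 0.941%, the early share in VD-Mac was 6.02%, early over late in VD-Mac gave 177 higher, VD3 in early members 27 higher, and VD3 in all members 474 higher. The count of VD3 over untreated in early members, lower, was 818, and that of VD3 over untreated in all members, lower, was 984. At 1% members were 0.620% and 0.623%, the early share was 24.4% in Co-Mac and 3.64% in VD-Mac, early over late in VD-Mac gave 152 higher, and VD3 in early members 9 higher. The early VD-Mac members numbered 80, 5 and 2 at these thresholds.

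With a mitochondrial limit of 5%, members were 2.69% in Co-Mac and 2.13% in VD-Mac, and the early share in VD-Mac was 11.7% (9 cells). Early over late gave 278 lower in Co-Mac and 204 higher in VD-Mac, VD3 in early members 59 higher and 605 lower, and VD3 in late members 159 lower. With the calprotectin-poor members left out, members were 1.56% of Co-Mac, the early share of Co-Mac was 43.4%, and early over late in VD-Mac gave 217 higher. The mean of per-cell shares gave 562 lower for VD3 in early members. Median-of-ratios size factors gave 412 higher for early over late in Co-Mac and 262 in VD-Mac. Totals without mitochondrial, ribosomal protein and rule genes gave 1222 higher in Co-Mac. With both stages weighted equally, VD3 in all members gave 158 higher and 226 lower.

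Other minimums and folds changed counts by construction. With a minimum of 10 CPM and UMIs, early over late gave 732 lower in Co-Mac and 855 higher and 721 lower in VD-Mac, VD3 in early members 305 higher and 662 lower, and in late members 354 and 543. With a minimum of 50, early over late gave 398 higher and 230 lower in Co-Mac and 180 and 190 in VD-Mac, and VD3 gave 59 and 136 in early, 70 and 89 in late, 152 and 266 in all members and 75 and 141 in other cells. With no minimum, the count of early over late, Co-Mac, higher, was 1555 (1098 lower), that of early over late, VD-Mac, lower, was 1051 (1371 higher), and that of VD3 over untreated in late members, lower, was 948 (706 higher). VD3 gave 655 and 1004 in early, 808 and 1441 in all members and 1127 and 1680 in other cells. At 1.5-fold, early over late gave 1779 and 871 in Co-Mac and 1197 and 868 in VD-Mac, and VD3 gave 405 and 1010 in early and 562 and 793 in late members. The count of VD3 over untreated in all members, lower, was then 1337, with 633 higher, and VD3 gave 347 and 725 in other cells. At 3-fold, early over late gave 184 and 215 in Co-Mac and 109 and 211 in VD-Mac, and VD3 gave 70 and 113 in early, 55 and 73 in late, 88 and 133 in all members and 52 and 87 in other cells. Thinned to 2000 UMIs per cell, early over late gave 308 and 112 in Co-Mac and 76 and 224 in VD-Mac, and VD3 gave 12 and 148 in early, 114 and 42 in late and 147 and 274 in all members. Fewer UMIs were left to meet the minimum of 20.

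None of these shares and counts moved with 300 UMIs in place of 300 genes, with the highest doublet scores removed, without members rich in macrophage, MHC class II and dendritic cell markers, without early fractions from 0.25 to 0.75, without shared barcodes, and without the eosinophil-like member.

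Signs turned for few genes under VD3. *Ccl17* turned to 1.22 in early members at a threshold of 0.1% and to 0.44 at a mitochondrial limit of 5%. In late members *Ccl17* turned to 0.14 at 0.5%, 0.091 at 1%, 0.13 without the highest doublet scores and 0.14 without members rich in macrophage, MHC class II and dendritic cell markers. *H2-Eb1* turned to 0.20 in late members at 0.5% and to -0.088 in early members without its top cell. *Stfa2l1* turned to 0.45 in early members at 0.5% and to 0.20 after thinning. At 1%, with 2 early VD-Mac members, *Treml2* turned to -0.27 and *S100a4* to 0.65 in early members. The causes were not tested.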

Other observations

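Several genes were read along the path between the stages, as levels summed over the cells of a bin. Such sums do not count dividing cells, and free RNA was not corrected for. From the lowest to the highest bin of the early fraction, *Mki67* stood at 96.1, 307, 239 and 232 CPM in Co-Mac and at 147, 225, 268 and 216 CPM in VD-Mac, with the lowest level in the latest bin. *Cebpe* was highest in the 2 bins that hold RNA of both granule types in Co-Mac (350 CPM from 0.05 to below 0.5 and 318 CPM from 0.5 to 0.95, against 249 and 129 CPM at the late and early ends), and at the late end in VD-Mac (397 CPM). In VD-Mac *Cyp24a1* stood at 217, 469, 1350 and 1072 CPM over the same bins, and at 0 UMIs in all 4 bins of Co-Mac.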
